A study of Mus musculus with 16 samples.

Results

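Levels of 8 genes of cholesterol synthesis and its control were compared by RNA-seq in the tibialis anterior (TA), a shin muscle made up mainly of fast fibres, from mice given vehicle or GDF15 and from pair-fed controls. The genes were Srebf2, Insig1, Hmgcs1, Idi1, Fdps, Fdft1, Sqle and Lss. They were chosen by symbol, a rule that itself uses no measured value, and are 8 of the 14538 genes in the deposited table. No receptor for lipoprotein uptake is among them, and uptake genes were examined as a separate list. None of the genes that were expressed highly enough to be tested passed the threshold for a change in any of the 3 comparisons, and for 6 of the 7 tested genes the 95% interval of each log2 difference lay within 0.6 of 0.

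Cholesterol is built from acetyl-CoA. In the mevalonate arm, Hmgcs1 makes HMG-CoA, the precursor of mevalonate, and Idi1 and Fdps then convert the activated isoprene units into farnesyl diphosphate. Fdft1 joins farnesyl diphosphate into squalene, Sqle oxidizes squalene, and Lss closes the rings to lanosterol, which a further series of enzymes turns into cholesterol. Srebf2 encodes SREBP2, the membrane-bound transcription factor that switches on these enzymes when sterols are scarce. Insig1 holds SREBP2 and its escort SCAP in the endoplasmic reticulum when sterols are plentiful, and is itself a target of SREBP2. Transcripts of the pathway therefore often move together when the sterol supply of a cell changes. Liver is the organ best known for this control.

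All 16 mice were wild type and of the C57BL/6 background by the labels, male C57BL/6J mice by the study's methods, single-housed at about 29 °C and fed a NASH diet, a diet that causes fatty and inflamed liver, from 8 weeks of age. The 6 GDF15-treated mice received recombinant GDF15, a stress-induced hormone that lowers food intake, once daily under the skin. The labels list doses of 5, 1 and 0.3 nmol per kg but do not give that of each sequenced mouse. The 5 pair-fed mice had their daily food matched to what the GDF15 group ate the day before, and the 5 vehicle-treated mice make up the third group. Each library came from a separate mouse. GDF15 against pair-fed compares the hormone at matched food intake, pair-fed against vehicle compares food restriction, and GDF15 against vehicle holds both. The libraries held an estimated 9470591 to 15027695 reads in genes, with group medians of 13904816 in vehicle-treated, 12127869 in GDF15-treated and 14258699 in pair-fed mice. The defining markers of muscle fibres were high in every library, with a summed level of 1763762 to 2292060 normalised counts, whereas Alb, the 1 of 4 listed hepatocyte markers in the table, lay at 0.0 to 9.8 normalised counts.

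The promoters of 5 of the 8 genes, Srebf2, Insig1, Hmgcs1, Idi1 and Lss, were found in RefSeq (GRCm38.p6) as windows of 250 bases before to 50 bases after the start of the gene. They were searched on both strands for TCACNCCAC, the core of a sterol regulatory element that SREBP2 can bind, for CCAAT, the box of NF-Y, a factor that acts with SREBP2, for CACGTG, the E-box, and for GGGCGG, the box of Sp1. No base was shared between any matches in these 5 windows. The sterol element core was matched in Hmgcs1 alone among the 5, at −137 to −129 from the RefSeq start, from which all distances here are counted and which differs from the GENCODE start given below, and in 1.24% of the 32851 promoters of the table. CCAAT was matched in 5 of 5 promoters and in 37.4% of all, and GGGCGG in 5 of 5 and in 35.7% of all. CACGTG was matched in Insig1, in 1 of 5, and in 7.15% of all promoters. Among the 79 promoters found for 57 of the 77 other listed genes of the pathway, 0 matched the sterol element core, 46.8% CCAAT, 12.7% CACGTG and 62.0% GGGCGG. The matches are letters in a window and describe neither binding nor use of these promoters in muscle.

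Stretches of 4 of the promoters are shown because the 8 genes were grouped as genes under SREBP2, and capitals mark the matches. Those of Srebf2 and Lss were kept short around the CCAAT match, so that their GGGCGG matches (5 and 2) lie outside them, and that of Idi1 is not shown because its matches lie within an annotated first exon. CCAAT appears as ATTGG and GGGCGG as CCGCCC where the match is on the other strand. All 4 are read on the plus strand, lie upstream of the annotated gene start and are written 5′ to 3′. The Hmgcs1 stretch is chr13:119690111-119690350, the Insig1 stretch is chr5:28071172-28071362, the Srebf2 stretch is chr15:82147119-82147178, and the Lss stretch is chr10:76531525-76531564.
Hmgcs1: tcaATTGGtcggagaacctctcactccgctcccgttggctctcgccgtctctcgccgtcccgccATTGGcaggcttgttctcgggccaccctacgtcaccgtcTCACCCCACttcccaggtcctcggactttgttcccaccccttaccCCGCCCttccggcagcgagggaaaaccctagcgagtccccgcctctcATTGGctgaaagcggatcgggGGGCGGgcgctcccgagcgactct
Insig1: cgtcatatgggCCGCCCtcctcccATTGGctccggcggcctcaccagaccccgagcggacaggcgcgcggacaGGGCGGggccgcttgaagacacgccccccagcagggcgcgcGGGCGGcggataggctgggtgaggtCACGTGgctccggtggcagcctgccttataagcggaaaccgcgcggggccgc
Srebf2: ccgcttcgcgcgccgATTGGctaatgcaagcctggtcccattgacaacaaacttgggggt
Lss: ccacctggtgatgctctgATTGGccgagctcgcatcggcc

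Levels were first set against each other per kilobase of the longest annotated coding transcript, on the scale of normalised counts. The transcripts in use in this muscle were not determined, and the order rests on this choice of length. In vehicle-treated mice the highest of the 8 was Fdft1, at 360.0 ± 42.5 normalised counts per kb (SD, n = 5), followed by Fdps at 202 ± 20.3 and Hmgcs1 at 145 ± 9.45. Insig1 followed at 64.7 ± 3.81, above Srebf2 at 45.7 ± 7.74 and Idi1 at 42.7 ± 5.16 per kb, and these last 2 overlapped between mice. Lss at 13.9 ± 9.47 and Sqle at 1.84 ± 0.641 per kb were lowest, so that both enzymes between squalene and lanosterol lay below the enzyme that makes squalene. The order of the group means was the same in GDF15-treated mice except that Idi1, at 38.8 ± 3.16 per kb (n = 6), lay just above Srebf2 at 37.4 ± 3.7. In pair-fed mice the lowest Insig1 value and the highest Srebf2 value met at 47.0 per kb. Of the 14170 coding genes in the table, 88.7% lay below Fdft1 in level per kb over all mice, 80.8% below Fdps, 74.7% below Hmgcs1 and 57.2% below Insig1. The share was 50% for Srebf2, 49.4% for Idi1, 30.4% for Lss and 12.7% for Sqle, so the 8 genes spread over most of the range of expression in this muscle.

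**Figure D1:**
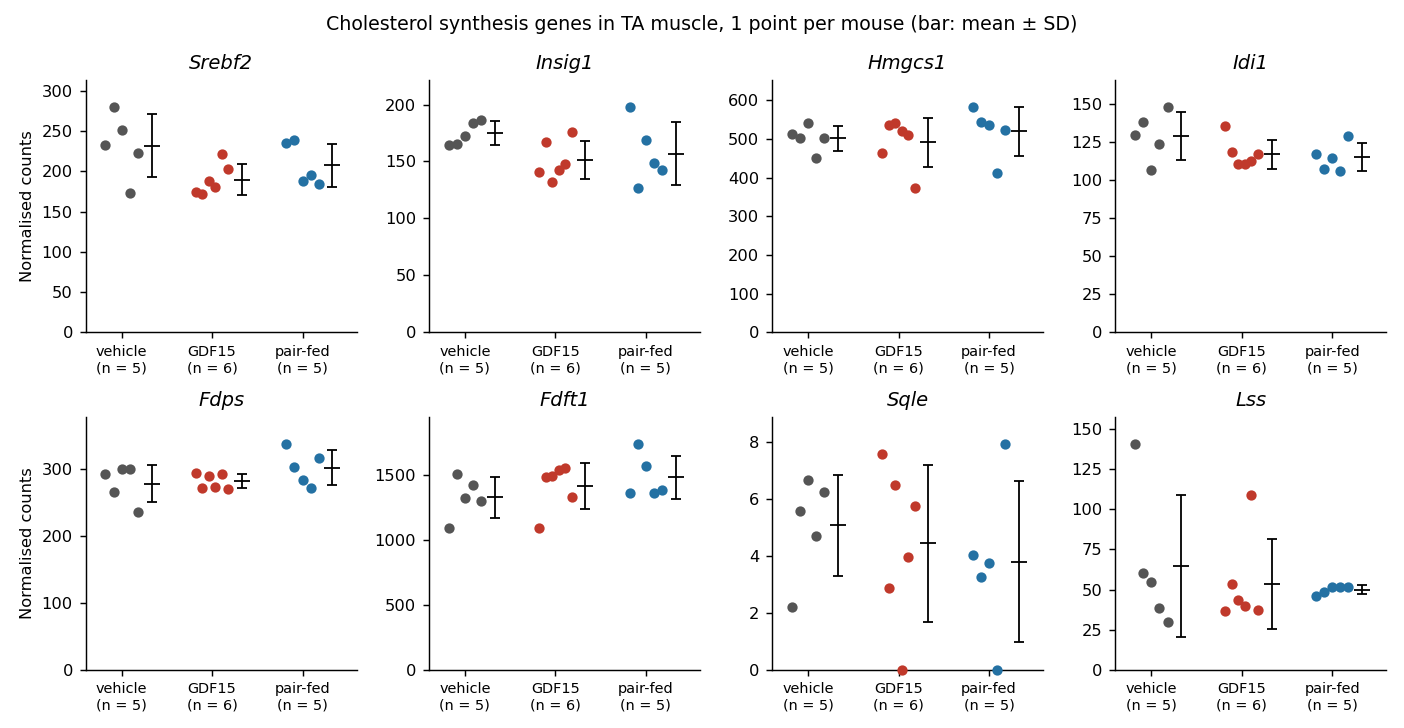
Normalised counts (vertical axes, from 0) of the 8 genes in each mouse, by group on the horizontal axes, with the group mean ± SD as a black bar. Groups overlapped for each gene, the Lss values of vehicle mouse 1 (141) and GDF15 mouse 5 (109) stood above those of the other mice, and Sqle lay between 0 and 7.92.

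Srebf2, the transcription factor of the pathway, lies on chromosome 15 at 82147181 to 82205379 (GRCm38, GENCODE vM21, plus strand). Its normalised counts were 232, 280.4, 251, 174 and 222 in vehicle mice 1 to 5. In GDF15 mice 1 to 6 they were 175, 172, 188, 181, 221 and 203, and in pair-fed mice 2 to 6 they were 236, 239, 188, 196 and 184. Each of the 6 GDF15-treated mice lay below 4 of the 5 vehicle-treated mice, while the fifth, vehicle mouse 4, lay within the range of the GDF15 group. The group means were 232 ± 39.3 in vehicle (SD, n = 5), 190.0 ± 18.8 in GDF15 (n = 6) and 208 ± 26.7 in pair-fed mice (n = 5). Against vehicle the log2 difference of GDF15 was −0.27 (SE 0.11, 95% interval −0.51 to −0.04), with an unadjusted limma p of 0.0237 and a Benjamini-Hochberg adjusted p of 0.349 over all tested genes. This was the smallest unadjusted p among the 8 genes in this comparison, in which 11.0% of all tested genes had an unadjusted p under 0.05. Against pair-fed controls the log2 difference of GDF15 was −0.13 (SE 0.11, interval −0.36 to 0.10, limma adjusted p = 0.658). The pair-fed mice differed from vehicle by −0.15 on the log2 scale (SE 0.12, interval −0.39 to 0.10, limma adjusted p = 0.547).

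Insig1, the sterol-dependent anchor of SREBP2, lies on chromosome 5 at 28071363 to 28078662 (plus strand). Its normalised counts were 164, 166, 173, 184 and 187 in vehicle mice 1 to 5, and 141, 168, 132, 143, 148 and 176 in GDF15 mice 1 to 6. In pair-fed mice 2 to 6 they were 198, 127, 168, 149 and 143. The 4 lowest of the 6 GDF15-treated mice and the 3 lowest of the 5 pair-fed mice lay below the whole vehicle group, and pair-fed mouse 2 lay above every other mouse. The means were 175 ± 10.3, 151 ± 16.8 and 157 ± 27.4 in vehicle, GDF15 and pair-fed mice. The log2 difference of GDF15 from vehicle was −0.21 (SE 0.10, 95% interval −0.43 to 0.01), with an unadjusted limma p of 0.0586 and a Benjamini-Hochberg adjusted p of 0.473. GDF15 and pair-fed mice differed by −0.04 (SE 0.10, interval −0.26 to 0.18, limma adjusted p = 0.893), a difference that turned to 0.10 with Schwann cell markers and to 0.02 with depth as a covariate. Pair-fed and vehicle mice differed by −0.17 (SE 0.11, interval −0.40 to 0.06, limma adjusted p = 0.444).

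Markers of endothelial cells were set beside Srebf2 and Insig1. The summed level of 6 endothelial markers was 4515 to 5408 normalised counts in vehicle, 3790 to 4598 in GDF15 and 3960 to 4802 in pair-fed mice. In both groups 6 of 6 markers had a negative difference from vehicle (median −0.20 in GDF15 and −0.19 in pair-fed mice). In GDF15 mice 1 was called, and in pair-fed mice 0 were called but 1 was under the adjusted threshold. Other lists lay the other way for GDF15 against vehicle, with positive differences for 8 of 8 Schwann cell markers (median 0.21), 5 of 6 macrophage markers (0.34), 4 of 5 progenitor markers (0.19) and 3 of 3 red blood cell markers (1.24), and 0 called. The part of the endothelial, macrophage, progenitor and red blood cell markers in the differences of Srebf2 and Insig1 was not tested. In RNA of whole muscle, fewer cells of a type and less RNA per cell cannot be told apart.

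The mevalonate arm was represented by Hmgcs1, Idi1 and Fdps, and none of them stood apart between the groups. Hmgcs1, the synthase of HMG-CoA, lies on chromosome 13 at 119690379 to 119708260 (plus strand). Its normalised counts were 513, 504, 541, 451 and 502 in vehicle mice, 464, 536, 541, 522, 511 and 375 in GDF15 mice, and 583, 545, 536, 413 and 524 in pair-fed mice, each in the order of the mouse numbers. GDF15 mouse 6 and pair-fed mouse 5 were the lowest of the 16, and the other mice lay between 451 and 583. The means were 502 ± 32.7, 492 ± 63.7 and 520.0 ± 63.9 in vehicle, GDF15 and pair-fed mice. The log2 differences were −0.08 for GDF15 against pair-fed (interval −0.28 to 0.12), −0.04 for GDF15 against vehicle (interval −0.24 to 0.16) and 0.04 for pair-fed against vehicle (interval −0.17 to 0.25), with limma adjusted p of 0.752, 0.924 and 0.867.

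Idi1, which isomerizes isopentenyl diphosphate, lies on chromosome 13 at 8885501 to 8892451 (plus strand). Idi1 had normalised counts of 129, 138, 107, 124 and 148 in vehicle mice, 136, 118, 110.3, 111, 113 and 117 in GDF15 mice, and 117, 107, 114, 106 and 129 in pair-fed mice. GDF15 mouse 1 lay above the other mice of its group, and the 3 groups overlapped. The means were 129 in vehicle (coefficient of variation 12.1%), 117 in GDF15 (8.16%) and 115 in pair-fed mice (8.01%). The log2 difference was −0.13 for GDF15 against vehicle (interval −0.33 to 0.07, limma adjusted p = 0.657) and −0.16 for pair-fed against vehicle (interval −0.37 to 0.04, limma adjusted p = 0.388). GDF15 and pair-fed mice differed by 0.03 (interval −0.16 to 0.23, limma adjusted p = 0.917), and by −0.01 without GDF15 mouse 1.

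Fdps, which condenses isoprene units to farnesyl diphosphate, lies on chromosome 3 at 89093588 to 89101959 (minus strand). Fdps was counted at 292, 265, 299, 300.3 and 236 in vehicle mice, 293, 272, 289, 273, 292 and 269.5 in GDF15 mice, and 337, 303, 283, 272 and 316 in pair-fed mice. The GDF15 group was the narrowest, and 3 of the 5 pair-fed mice lay above every mouse of the other groups. The means were 278 ± 28, 282 ± 11.1 and 302 ± 25.9. The log2 difference of pair-fed from vehicle mice was 0.12 (SE 0.08, interval −0.04 to 0.28, limma adjusted p = 0.426), that of GDF15 from pair-fed mice −0.10 (SE 0.07, interval −0.25 to 0.05, limma adjusted p = 0.597) and that of GDF15 from vehicle mice 0.02 (SE 0.07, interval −0.13 to 0.17, limma adjusted p = 0.954).

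The steps from farnesyl diphosphate to lanosterol were represented by Fdft1, Sqle and Lss. Fdft1, which commits farnesyl diphosphate to sterols, lies on chromosome 14 at 63145150 to 63179578 (minus strand). Normalised counts of Fdft1 were 1092, 1510.0, 1324, 1424 and 1300.0 in vehicle mice, 1095, 1487, 1496, 1540.0, 1552 and 1329 in GDF15 mice, and 1360.0, 1739, 1569, 1361 and 1389 in pair-fed mice. The first mouse of both the vehicle and the GDF15 group was the lowest of its group, and pair-fed mouse 3 was the highest of all. The means were 1330.0 ± 157, 1417 ± 177 and 1484 ± 167. The log2 difference was 0.16 for pair-fed against vehicle (SE 0.10, interval −0.05 to 0.37, limma adjusted p = 0.42), 0.09 for GDF15 against vehicle (interval −0.11 to 0.29, limma adjusted p = 0.80) and −0.07 for GDF15 against pair-fed (interval −0.27 to 0.13, limma adjusted p = 0.797).

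Lss, which cyclizes oxidosqualene to lanosterol, lies on chromosome 10 at 76531588 to 76557138 (plus strand) and was the most variable of the 7 tested genes. Lss had normalised counts of 141, 60.1, 54.7, 38.5 and 29.6 in vehicle mice, 36.7, 53.7, 43.4, 39.5, 109 and 37.5 in GDF15 mice, and 46.2, 48.5, 51.7, 51.9 and 51.9 in pair-fed mice. A single mouse stood far above the rest in both the vehicle and the GDF15 group, whereas the pair-fed mice lay within a narrow range. The means were 64.8 ± 44.2, 53.3 ± 28 and 50 ± 2.59. The log2 difference from vehicle was −0.18 in GDF15 mice (interval −0.85 to 0.49, limma adjusted p = 0.89) and −0.15 in pair-fed mice (interval −0.85 to 0.55, limma adjusted p = 0.859), and both turned positive, to 0.15 and 0.18, without vehicle mouse 1. For GDF15 against pair-fed it was −0.03 (interval −0.70 to 0.64, limma adjusted p = 0.985), so that for Lss the interval still held differences of the size needed for a call in each comparison.

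Sqle, the oxidase of squalene that is held to be a second control point of the pathway, lies on chromosome 15 at 59315077 to 59331192 (plus strand). Its normalised counts were 2.2, 5.56, 6.66, 4.71 and 6.24 in vehicle mice, 7.58, 2.89, 6.48, 0.0, 3.96 and 5.73 in GDF15 mice, and 4.04, 3.26, 3.75, 0.0 and 7.92 in pair-fed mice. In GDF15 mouse 4 and pair-fed mouse 5, in which no read was counted, 3 reads would have stood for 4.02 and 3.43 normalised counts, a limit that covers counting error only. Sqle was therefore below the minimum mean of 10 normalised counts for testing. With no minimum the log2 differences were 0.20 for GDF15 against pair-fed, −0.37 for GDF15 against vehicle and −0.57 for pair-fed against vehicle (SE 0.56, 0.56 and 0.58), with limma adjusted p of 0.924, 0.879 and 0.692 and intervals as wide as −1.79 to 0.64. No difference of Sqle was detected, and the size of difference that could have been was not computed.

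**Figure D2:**
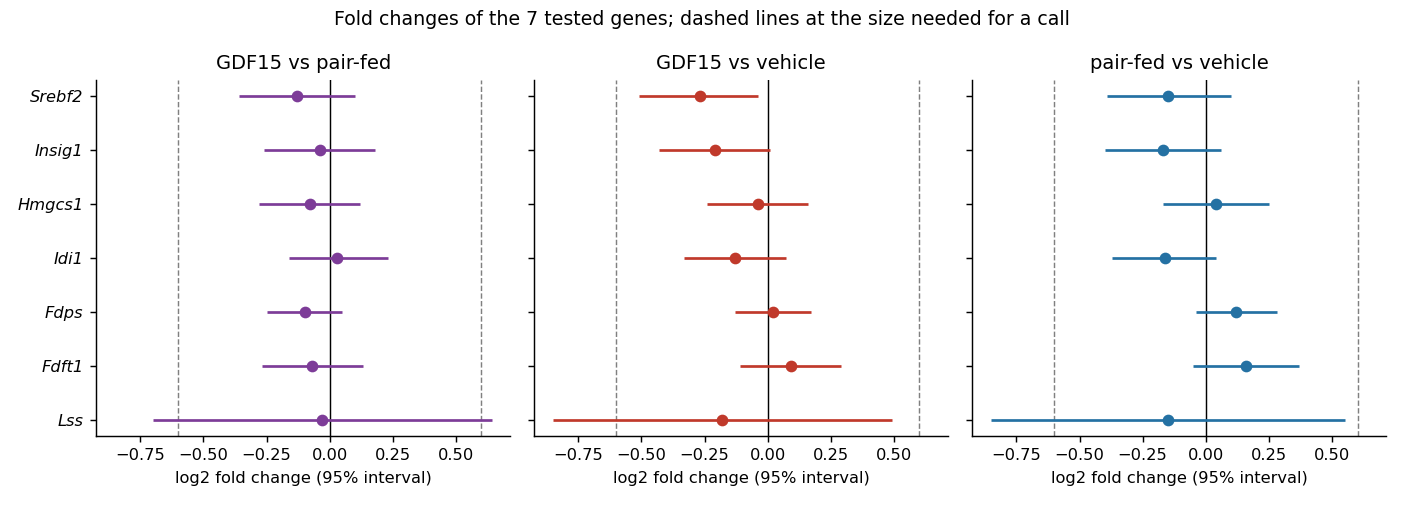
Log2 fold changes (horizontal axes, points) with 95% intervals (lines) of the 7 tested genes (vertical axis) in the 3 comparisons, with dashed lines at the size of 0.6 needed for a call. Intervals of 6 of the 7 genes lay within the dashed lines in each comparison, the exception being Lss, and that of Srebf2 in GDF15 against vehicle was the only one that left out 0.

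Over the 7 tested genes, 0 were called in each of the 3 comparisons, at a limma adjusted p under 0.1 and a size of the log2 fold change over 0.6. Of all 11841 tested genes 0.279% were called for GDF15 against pair-fed, 0.304% for GDF15 against vehicle and 0.819% for pair-fed against vehicle, so that 0 of 7 is close to the background. On the adjusted p alone 0 of 7 passed in each comparison, against 2.17%, 0.769% and 6.37% of all genes. An unadjusted p under 0.05 was found for 0, 1 and 0 of the 7, against 13.2%, 11.0% and 18.9% of all genes. The groups overlapped for 7 of 7 genes in each comparison, while 1.77%, 1.65% and 5.44% of all genes had groups that did not overlap. The median log2 difference of the 7 was −0.07 for GDF15 against pair-fed, with 1 gene above 0 and 6 below, −0.13 for GDF15 against vehicle, with 2 above and 5 below, and −0.15 for pair-fed against vehicle, with 3 above and 4 below. The medians over all tested genes were 0.003, 0.001 and 0.001, and 50.8%, 50.4% and 50.2% of all genes lay above 0. The comparisons share groups of mice, so these counts are not independent of each other.

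The 8 genes did not vary together among the mice beyond the threshold. Over the 16 mice, after the mean of each group was subtracted, Pearson's r of the 28 pairs ran from −0.40 to 0.39 with a median of 0.01, and 14 pairs were positive and 14 negative. The highest was that of Idi1 and Sqle (r = 0.39, permutation p = 0.137, adjusted p = 0.885, Spearman's rho = 0.37, permutation p = 0.161, adjusted p = 0.879, and r = 0.5 without the 2 mice farthest from the median of Idi1). The lowest was that of Idi1 and Fdft1. Of the 28 pairs, 0 had an adjusted permutation p under 0.05 and 0 an unadjusted one, for both coefficients. Srebf2 had r of 0.23 with Hmgcs1, −0.17 with Idi1, 0.05 with Fdps, 0.20 with Fdft1, 0.35 with Lss and −0.08 with Insig1. Counting noise weighs on any pair with Sqle, whose values rest on few reads.

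**Figure D3:**
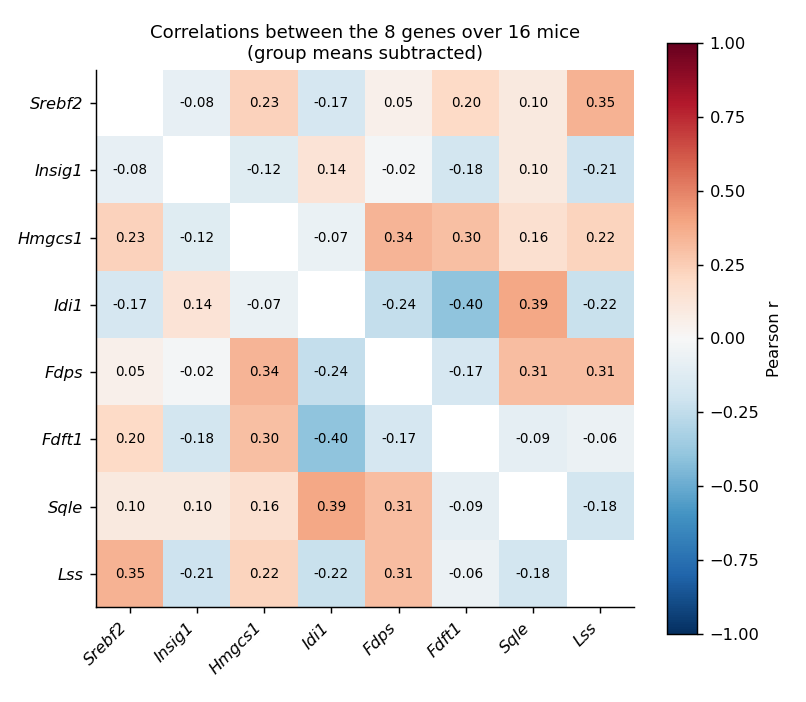
Pearson's r, written in each cell and shown by colour from −1 (blue) to 1 (red), between the log2 levels of the 8 genes (both axes) over 16 mice after the group means were subtracted. The coefficients lie between −0.40 and 0.39, with no block of genes that vary together.

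The mean of the 7 tested genes, each scaled to unit SD, was followed most closely by Fubp3 (r = 0.85), Sdf2l1 (0.81), Cnpy3 (0.80) and Gfra1 (0.79) over the 16 mice with group means subtracted. Pkd1, Prr14l, Caap1 and Mtch1 (0.78 each) and Scarf1 and Mark4 (0.75 each) followed, and none of these 10 is a gene of the pathway lists. Of the 7 genes themselves, Hmgcs1 followed their mean most closely (r = 0.70), then Srebf2 (0.58), Lss (0.51) and Fdps (0.47), while Fdft1 (0.25), Insig1 (0.20) and Idi1 (0.02) did so less, although each is part of that mean. These coefficients describe the 16 libraries and carry no test.

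Of 77 other genes of the pathway and its branches, 75 were in the table and 71 were tested. For GDF15 against pair-fed 1 of 71 was called, for GDF15 against vehicle 0, and for pair-fed against vehicle 3, which are 1.41%, 0% and 4.23% against the shares of all genes given above. In that last comparison 9 of the 71 passed on the adjusted p alone, 4 higher and 5 lower, or 12.7% against 6.37%. For GDF15 against pair-fed, 0 of 5 other genes of the mevalonate arm were called (median log2 difference −0.07), 0 of 11 from lanosterol to cholesterol (−0.17), 0 of 13 of SREBP processing and sterol-regulated turnover (−0.01), 0 of 11 of cholesterol uptake and lysosomal release (−0.03), 0 of 10 of efflux, LXR and esterification (0.22), 0 of 12 of the isoprenoid branches (0.04) and 1 of 9 fatty acid synthesis targets of SREBP-1c (0.12). The direction of the differences varied between the lists. For GDF15 against pair-fed, 8 of 11 genes from lanosterol to cholesterol and 7 of 11 of uptake had a negative difference, and 9 of 12 of the isoprenoid branches a positive one. For pair-fed against vehicle, which uses the same 5 pair-fed mice, 8 of 11 genes from lanosterol to cholesterol and 9 of 11 of uptake had a positive difference, and 8 of 12 of the isoprenoid branches a negative one.

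**Figure D4:**
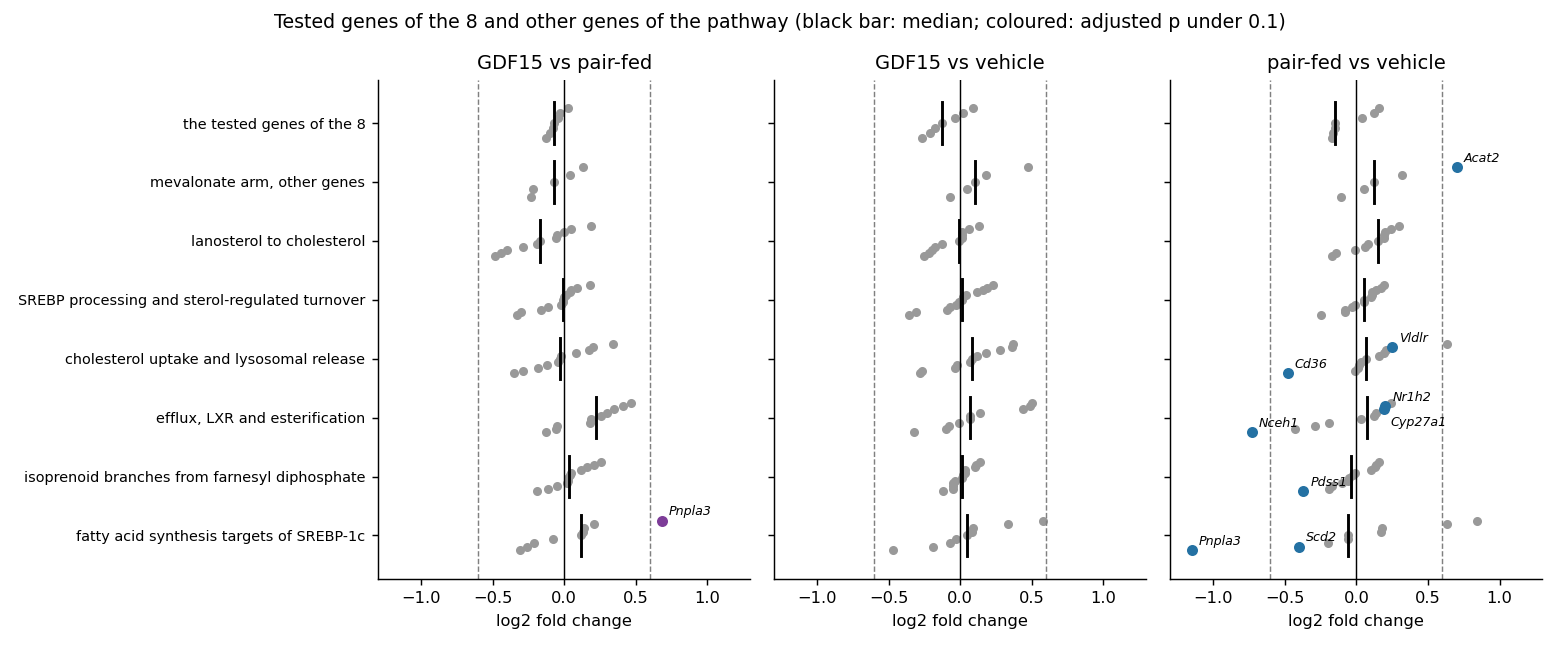
Log2 fold changes (horizontal axes) of the tested genes in 8 lists (vertical axis), with the median of a list as a black bar, genes under an adjusted p of 0.1 in colour and dashed lines at 0.6 in size. No gene among the tested ones of the 8 is coloured, Pnpla3 alone is for GDF15 against pair-fed, none is for GDF15 against vehicle, and 9 are for pair-fed against vehicle.

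Acat2, the cytosolic thiolase that makes acetoacetyl-CoA just before Hmgcs1, was higher in pair-fed than in vehicle-treated mice. Normalised counts of Acat2 were 33.4, 35.1, 54.5, 40.9 and 34.8 in vehicle mice, 51.1, 51.1, 46.4, 63.6, 53.8 and 64.3 in GDF15 mice, and 80.5, 57.0, 51.1, 67.5 and 68.6 in pair-fed mice. Only vehicle mouse 3 lay within the pair-fed range, and the GDF15 group lay between the others in its mean. The log2 difference of pair-fed from vehicle was 0.70 (SE 0.16, limma adjusted p = 0.0236), but 0.19, under the size needed for a call, when the deposited values were fitted as they stand. On that scale fold changes are smaller: calls over all genes went from 97 to 17, with 754 and 756 genes past the adjusted p. GDF15 differed by 0.47 from vehicle (SE 0.15, limma adjusted p = 0.233) and by −0.23 from pair-fed (SE 0.15, limma adjusted p = 0.556).

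Nceh1, a hydrolase of cholesteryl esters, was lower in pair-fed than in vehicle-treated mice. Its normalised counts were 578 to 667 in vehicle mice and 254, 492, 501, 347 and 327 in pair-fed mice 2 to 6, without overlap, and 389, 411, 489, 716, 657 and 389.9 in GDF15 mice, which spread over both ranges. The log2 difference of pair-fed from vehicle was −0.73 (SE 0.19, limma adjusted p = 0.0392), and −0.59 without pair-fed mouse 2, which is under the size needed for a call. GDF15 against pair-fed gave 0.41 (SE 0.18, limma adjusted p = 0.331).

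Pnpla3, a lipid droplet protein whose gene is a feeding-responsive target of SREBP-1c in liver, was lower in pair-fed mice than in both other groups. Pnpla3 had normalised counts of 43.6, 36.5, 48.7, 38.7 and 31.0 in vehicle mice, 21.4, 26.4, 27.0, 28.4, 29.2 and 38.5 in GDF15 mice, and 18, 17.0, 19.2, 19.5 and 12.7 in pair-fed mice. The pair-fed group lay below every mouse of both other groups. The log2 difference of pair-fed from vehicle was −1.15 (SE 0.19, limma adjusted p = 0.00298) and that of GDF15 from pair-fed 0.68 (SE 0.18, limma adjusted p = 0.0789), while that of GDF15 from vehicle was −0.47 (SE 0.18, limma adjusted p = 0.32). The adjusted p for GDF15 against pair-fed missed the threshold without any one of GDF15 mice 2 to 6 or pair-fed mice 2, 5 and 6 (limma adjusted p of 0.112 to 0.18), while the log2 difference stayed at 0.58 to 0.73.

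**Figure D5:**
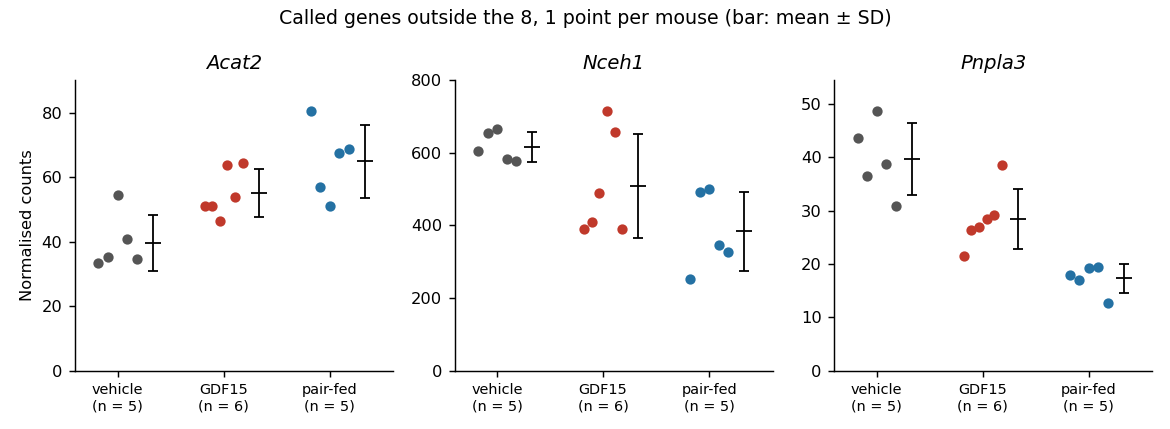
Normalised counts (vertical axes, from 0) of Acat2, Nceh1 and Pnpla3 in each mouse, by group on the horizontal axes, with the group mean ± SD as a black bar. Pair-fed mice lay below vehicle-treated mice without overlap for Nceh1 and Pnpla3, and above all but vehicle mouse 3 for Acat2.

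The other 6 genes past the adjusted p alone in pair-fed against vehicle mice had smaller differences. Cd36, a scavenger receptor best known in muscle for fatty acid uptake, was lower (log2 difference −0.48, limma adjusted p = 0.0936), without overlap between 3978 to 6559 normalised counts in pair-fed and 6634 to 8341 in vehicle mice. Nr1h2, which encodes the sterol-sensing receptor LXRβ, was higher by 0.20 (limma adjusted p = 0.0733), also without overlap. Vldlr, the VLDL receptor, was higher by 0.25 (limma adjusted p = 0.0867) and Cyp27a1, the sterol 27-hydroxylase, by 0.19 (limma adjusted p = 0.0858). Scd2, a desaturase of fatty acids, was lower (−0.40, limma adjusted p = 0.066), as was Pdss1, which starts the side chain of coenzyme Q (−0.37, limma adjusted p = 0.0705). These passes were close to the threshold. Of 31 refits each, the adjusted p was lost in 17 for Cyp27a1 (up to 0.212), 15 for Cd36 (up to 0.223), 12 for Vldlr (up to 0.195), 10 for Nr1h2, 10 for Pdss1 and 9 for Scd2, and the direction was kept in each.

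Markers of other cell types were examined beside these genes, since Schwann cells, which make myelin, and adipocytes can carry much of the sterol and lipid synthesis in RNA of whole muscle. The summed level of 8 Schwann cell and myelin markers was 916 to 1424 normalised counts in vehicle, 1149 to 1567 in GDF15 and 645 to 1672 in pair-fed mice, with a negative log2 difference of pair-fed from vehicle mice in 8 of 8 markers, a positive one of GDF15 from pair-fed mice in 8 of 8, and 0 called. The sum of 7 adipocyte markers was 2252 to 2476 in vehicle, 1965 to 3745 in GDF15 and 1998 to 2789 in pair-fed mice, with 0 called, and 6 of 7 markers had a positive log2 difference from vehicle in both GDF15 (median 0.37) and pair-fed mice (median 0.35), although the median sum was 2379 in vehicle, 2030.0 in GDF15 and 2086 in pair-fed mice. For GDF15 against pair-fed, the log2 difference was positive for 6 of 6 macrophage markers (median 0.50), 5 of 5 of fibro-adipogenic progenitors (0.35) and 3 of 3 of red blood cells (1.17, although their median sum was 1846 in GDF15 and 2009 in pair-fed mice, which ranged from 79.9 to 3743), and negative for 6 of 6 of muscle fibres (−0.09), with 0 called in each list. For pair-fed against vehicle it was negative for 6 of 6 endothelial markers (median −0.19, 1 under the adjusted threshold), 5 of 6 macrophage markers (−0.15) and 4 of 5 of progenitors (−0.16). It was positive for 6 of 6 of muscle fibres (0.13, 1 under the adjusted threshold) and 2 of 3 of red blood cells (0.07). The part of the endothelial, macrophage, progenitor, fibre and red blood cell markers in the values above, those of Cd36 included, was not tested. With adipocyte or Schwann cell markers as a covariate, Acat2, Nceh1 and Pnpla3 were still called for pair-fed against vehicle, and Pnpla3 missed the adjusted threshold for GDF15 against pair-fed at log2 differences of 0.68 and 0.82. Over all genes the calls for GDF15 against pair-fed went from 33 to 22 with the adipocyte and to 4 with the Schwann cell covariate, so the 0 calls among the 7 genes under these fits carry little information. Part of the exons of Hmgcs1, Idi1, Fdft1 and Lss overlap a gene on the opposite strand, and those of Fdps overlap the gene Gm43738 on the same strand. Exons of Pnpla3 overlap Gm49513 and those of Scd2 overlap Mir5114 on the same strand, and those of Pdss1 overlap Abi1 and A130006I12Rik on the opposite strand. The library kit keeps the strand, but the strand setting of the counting is not given in the sources used here, so reads of these pairs may not be fully separated.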

How the data were processed

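Per the labels and the study's methods, the authors used Trim Galore for trimming, Salmon for quantification and DESeq2 for scaling, and the submitters' processing notes name mm10. Tool versions are not given in the sources used here. The deposited values are log2 values, 1 per gene symbol and library, between 7.32 and 19.96 for 14538 genes, with 8459 values at the lowest. Their spacing is that of variance-stabilized values as DESeq2 makes them, which the authors do not state for this table and which was inferred, and they were turned back into normalised counts with the inverse of the closed form. Low values (under 6) were then within 0.1 reads of whole multiples of 1 step per library for 94.4% to 98.1% of genes with a single transcript, but for 19.1% to 27.6% of genes with more than 4. Whole reads were therefore not recovered, no count test was run, and depth is the summed value divided by the step.

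Genes with a mean of at least 10 normalised counts (11841) were tested on log2(normalised count + 1) with limma 3.58.1 (R 4.3.3) with a trend, in 1 fit of all 16 libraries, two-sided, with Benjamini-Hochberg adjustment over all of them. Fold changes on that scale understate those of low genes. A call needed both an adjusted p under 0.1 and a log2 fold change over 0.6 in either direction. On simulated data for GDF15 against vehicle over 11841 genes, 166 of 200 genes changed by a log2 of 1 were called (83%), with 6 unchanged ones. Smaller changes were not simulated, so recovery near 0.6 or at the size of the differences reported for the tested genes is not known. Correlations were tested with 100000 permutations (scipy 1.17.1), two-sided. Positions come from GENCODE vM21 (GRCm38). Of the 77 other genes listed, 75 were in the table, and some items are not reported here.

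The 8 genes and the lists were chosen with earlier results of these data known. Named were the 8 genes, listed genes past the adjusted p in any comparison, and the 10 genes most like the mean of the 7 tested ones. Soat1 and Apoe were added after their values were seen. The alternatives were other pseudocounts (0.5 and 5), minimum means (none and 50), scalings, weights, thresholds, covariates, the mouse number as a block, and each mouse left out in turn.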

Additional observations from a re-analysis of the deposited data

Results flagged for a closer look

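In 51 groups of mice examined for a single value far from the rest, 4 were marked, and chance marks about 1 in 20 groups. Lss was high in vehicle mouse 1, at 141 normalised counts against 29.6 to 60.1 in the other vehicle mice, and in GDF15 mouse 5, at 109 against 36.7 to 53.7. Idi1 was high in GDF15 mouse 1, at 136 against 110.3 to 118. Nr1h2 was high in pair-fed mouse 3, at 786 against 668 to 681. The causes were not tested.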

How the results depend on the processing

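Over 651 refits of the 21 differences of the tested genes, 0 had an adjusted p under 0.1 (lowest 0.15) and 0 exceeded 0.6 in size (largest 0.41), 636 kept their direction, and 15, in 9 of the 21, reversed, by up to 0.18. Lss for GDF15 against pair-fed was 0.01 on the deposited values, and Insig1 was 0.02 with depth and 0.10 with Schwann cell markers as a covariate. With single mice left out, the ranges that crossed 0 were, for GDF15 against pair-fed, −0.01 to 0.08 (Idi1), −0.10 to 0.00 (Fdft1), −0.25 to 0.06 (Lss) and −0.12 to 0.04 (Insig1), for GDF15 against vehicle, −0.08 to 0.04 (Hmgcs1), −0.04 to 0.05 (Fdps) and −0.41 to 0.15 (Lss), and for pair-fed against vehicle, −0.00 to 0.12 (Hmgcs1) and −0.38 to 0.18 (Lss). No pair of the 8 genes passed in any of the 19 other settings of the correlations.

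Of the other genes of the pathway, Pnpla3, the 1 called for GDF15 against pair-fed (0.68), missed the adjusted threshold, leaving 0 called, with a similar fold when no minimum was set (0.68), only the groups compared were fitted (0.68), the replicate block (0.71), the adipocyte (0.68) or the Schwann cell covariate (0.82) was added, or quantile normalisation (0.64) was used. With depth as a covariate it missed both thresholds (0.56), with a pseudocount of 5 that on the fold (0.58), and on the deposited values both (0.13). With a minimum of 50 it was not tested, and at an adjusted p under 0.05 it was not called, both again leaving 0. With mice left out, 0 to 1 genes were called. For GDF15 against vehicle, 0 to 1 were called with mice left out, Apoe passing without GDF15 mouse 3 (0.60, limma adjusted p = 0.0713). For pair-fed against vehicle, the 3 calls became 0 on the deposited values (Acat2 0.19, Nceh1 −0.47, Pnpla3 −0.24), where each fell short of the fold threshold. Over all genes, calls in that comparison went from 97 to 17 on the deposited values, while 754 and 756 genes passed the adjusted p. The same fold threshold is therefore stricter on that scale. In all refits that tested them, the limma adjusted p stayed at or under 0.0243 for Pnpla3 and 0.0983 for Nceh1. With mice left out, 2 to 4 genes were called. The mouse numbers do not pair the mice: 0 of 14 same-number pairs had a correlation of deviations above 0.1, and 1 of 16 libraries was most like its own number. With the number as a block, 2 genes were called for pair-fed against vehicle, since Acat2 (0.63, limma adjusted p = 0.106) was not. Depth limits Sqle and other genes of few reads, and the true transformation and per-mouse doses are not known.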

Other observations

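In Soat1, which stores cholesterol as esters and was singled out after its values were seen, single mice also stood apart. It lay at 132 normalised counts in GDF15 mouse 3, 109 in pair-fed mouse 4 and 71.8 in GDF15 mouse 6, at 42.5 in vehicle mouse 5, and at 11.6 to 20.8 in the other 12 mice. These were not the mice in which Lss was high.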
